A study of Mus musculus with 91 samples.

Results

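Among 91 single cells taken from the caudal lateral epiblast (CLE) of E8.0 mouse embryos, 48 were mesoderm-like, and these were compared by their level of T, the gene for the T-box transcription factor brachyury. A cell was called mesoderm-like when Aldh1a2, the gene for an enzyme that makes retinoic acid in mesoderm, had at least as many counts per 1000000 (CPM) as Nkx1-2, a homeobox gene of the caudal epiblast. CPM is a gene's read count in a cell over all counts of that cell, times that number. The 48 cells were then ranked by T, and the groups were chosen by that measured level: the 16 cells with the most T (T-high) were set against the 16 with the least (T-low), 32 of the 91 cells in all. A middle group of 16 mesoderm-like cells and 43 epiblast-like cells made up the rest. The measured level of T chose both groups, so all values of T, and those of Aldh1a2 and Nkx1-2, are given below as a description.

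All cells came from unmanipulated outbred MF1 embryos at the early head fold stage, and no genotype or treatment differed between them. Pieces of CLE were pooled, dissociated and sorted into a 96-well plate, 1 cell per well, and libraries were made with the Smart-seq2 protocol, which copies full-length transcripts and carries no molecular identifiers. The labels name no embryo for any cell. Cells of 1 pool are not replicates, so each group of cells counts as 1 sample, no test between the groups was possible, and every SD below is a spread between cells. Mesoderm lies under the epiblast and was taken up with it in the dissection, and a cell here is known only by its transcripts and not by its place in the embryo.

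Total counts ran from 709866 to 4296934 in T-high cells and from 1665093 to 4439571 in T-low cells. A median of 7775.5 genes had a read in T-high cells and 7765.5 in T-low cells. Mitochondrial transcripts took a median of 5.64% of the counts in T-high cells and 4.59% in T-low cells. Of the T-high cells, 9 lay in plate rows A to D and 7 in rows E to H, against 10 and 6 of the T-low cells. The T-high cell in well D6 had the fewest counts of the 32 cells, and the T-low cell in well H4 was the only one of them with no read of T. H4 also had the fewest genes with a read of the 32 cells (6261). Its share of ribosomal protein counts was the largest, at 6.31% beside a T-low median of 2.75%. Shares of cells with a read are given with exact Clopper-Pearson 95% intervals, which cover counting error only.

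T is switched on in the primitive streak, where Wnt and Fgf signals keep it active, and it is needed for cells to leave the epiblast as mesoderm and for the trunk and tail to form. As cells move away from the streak into paraxial mesoderm, T is lost, Tbx6 and Msgn1 mark the presomitic mesoderm, and Meox1, Tcf15, Foxc1 and Foxc2 mark the mesoderm that goes on to form somites. The epithelial genes Cdh1 and Epcam are lost in the same passage while fibronectin (Fn1) and other matrix genes come on. Lists of genes for these steps were used to describe the cells.

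T lies at chr17:8434423-8442496 on the plus strand of the mouse genome GRCm38. The 250 bases before the start of T and of Dkk1, a secreted Wnt inhibitor and Wnt target that was higher in T-high cells, are shown because Wnt acts on its targets through TCF/LEF factors. Those before 1 of the starts of Rara, a retinoic acid receptor among the genes with the largest ratios, are shown because they hold letters of a T-box site. Capitals mark the TCF/LEF letters CTTTGA, read on the other strand as TCAAAG, in T and Dkk1. In Rara they mark the T-box letters GGTGTGA, read on the other strand as TCACACC, and both strands were searched. The sequences are RefSeq's on GRCm38.p6, 5′ to 3′ on the strand of the gene, at chr17:8434173-8434422 (plus), chr19:30549497-30549746 (minus) and chr11:98937446-98937695 (plus).
T: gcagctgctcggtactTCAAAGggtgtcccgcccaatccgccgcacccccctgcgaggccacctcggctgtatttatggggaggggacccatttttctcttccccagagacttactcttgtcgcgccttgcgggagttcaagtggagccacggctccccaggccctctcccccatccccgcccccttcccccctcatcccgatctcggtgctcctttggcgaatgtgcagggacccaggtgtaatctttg
Dkk1: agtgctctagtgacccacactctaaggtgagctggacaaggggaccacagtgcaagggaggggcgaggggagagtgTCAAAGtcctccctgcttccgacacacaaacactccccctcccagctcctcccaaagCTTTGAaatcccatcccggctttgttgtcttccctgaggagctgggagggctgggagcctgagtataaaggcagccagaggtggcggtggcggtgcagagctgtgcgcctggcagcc
Rara: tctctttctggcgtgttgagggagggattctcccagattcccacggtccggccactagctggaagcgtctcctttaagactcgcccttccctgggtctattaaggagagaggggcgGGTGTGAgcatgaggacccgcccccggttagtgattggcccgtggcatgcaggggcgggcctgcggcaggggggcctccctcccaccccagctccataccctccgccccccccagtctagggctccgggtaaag
T held 1 match to the TCF/LEF letters, 234 bases before its start, and Dkk1 held 2, at 174 and 117 bases. A match is a description of letters and not a binding site. All shares given here were counted over promoters that also reach past the start, a longer stretch than the 250 bases shown. The 32851 promoters searched did not cover every chromosome. Counted per promoter, the TCF/LEF letters stood in 16% of them and the T-box letters in 3.98%. The shares that follow are counted per gene, and a gene can have several promoters, so the per-promoter shares are no background for them. Among the compared genes with a sequence, the TCF/LEF letters stood in 11.9% of those higher in T-high cells, 16.1% of those lower and 13.7% of all. The T-box letters stood in 5.38% of those higher, 3.98% of those lower and 3.84% of all.

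T ranged over 445 to 1293 CPM in T-high cells, with a median of 750 CPM, and from 0 to 240.5 CPM in T-low cells, with a median of 139 CPM. The groups do not overlap because the rule parts them. At the upper border the last T-high cell (well C12) had 445 CPM and the first middle cell (E11) 433 CPM, while at the lower border the first T-low cell (E8) had 240.5 CPM and the last middle cell (D1) 242 CPM. T had no gap at either border, so the groups are ends of 1 range. The log2 ratio of (mean CPM + 1), T-high over T-low, was 2.47 for T. In the 43 epiblast-like cells T was as variable, from 0 to 1536 CPM with a median of 73.8 CPM.

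**Figure D1:**
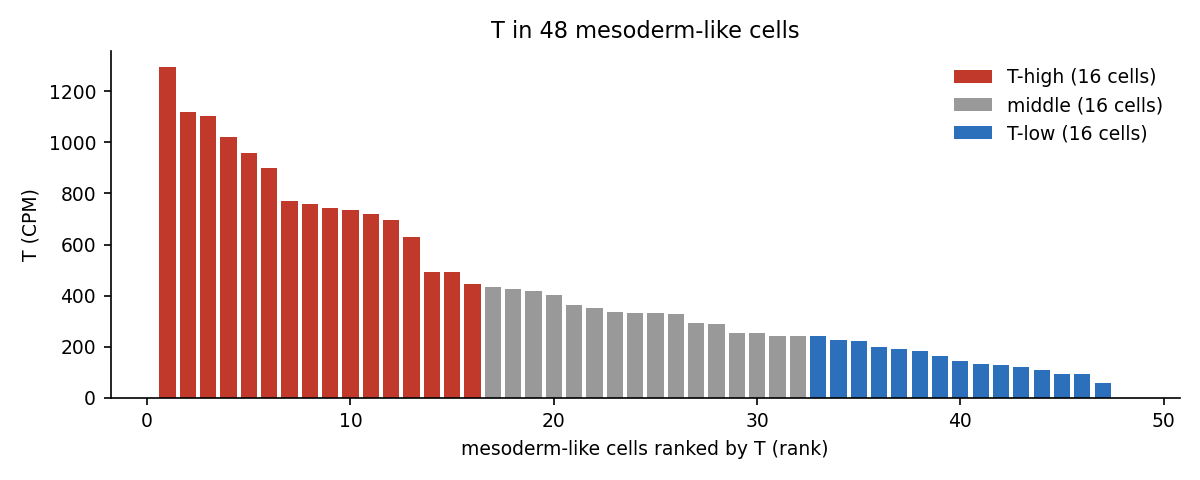
T in CPM for each of the 48 mesoderm-like cells, ranked from the most to the least T, with the 16 T-high cells, the 16 middle cells and the 16 T-low cells in different colours. T runs from 1293 CPM to 0 with cells on both sides of each border at nearly the same level.

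The other genes of the rule ran as follows. Aldh1a2 averaged 1198 ± 549 CPM in T-high cells and 1832 ± 794 CPM in T-low cells (SD over 16 cells each). Nkx1-2 was low in both groups beside its 967 ± 359 CPM in the 43 epiblast-like cells, at 65.9 ± 97.3 CPM in T-high cells and 24.6 ± 56.6 CPM in T-low cells. Exons of Nkx1-2 overlap Gm16764 on the other strand, and the strand setting of the counting was not given in the sources used here. Markers of mesoderm that the rule did not use fitted the class in both groups. Msgn1, a bHLH factor of presomitic mesoderm, had a read in 16 of 16 T-high cells and 16 of 16 T-low cells, and in 5 of 43 epiblast-like cells. Tbx6, the T-box factor of presomitic mesoderm, averaged 280 ± 171 CPM in T-high cells and 368 ± 295 CPM in T-low cells, against 13 ± 36.9 CPM in epiblast-like cells.

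Across the 10555 genes with a read in at least 8 of the 32 cells, 715 (6.77%) were at least 2-fold higher in T-high cells and 910 (8.62%) at least 2-fold lower. With the further condition that at least 70% of the 256 pairs of a T-high and a T-low cell ran in that direction, with ties shared evenly, 96 genes (0.91%) were higher and 157 (1.49%) lower. At 4-fold, 145 (1.37%) were higher and 192 (1.82%) lower. The median log2 ratio of all genes was -0.05, and their 5th and 95th percentiles were -1.33 and 1.19. Of the 3894 genes with a mean of 10 to 50 CPM, 477 were higher and 622 lower, the most of any range of levels. Of the 1076 genes with a mean of at least 200 CPM, 9 were higher and 4 lower. The counts are a description of these 32 cells, and how many of the genes would repeat in other embryos was not tested. The middle cells, over a narrower range of T, ran in the same direction no more often for these genes than for others. Between their upper 8 cells (mean T of 383 CPM) and their lower 8 (279 CPM), 51.3% of the higher genes and 51.3% of the lower genes had the sign of the main comparison, against 53.6% of all 10555 genes.

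**Figure D2:**
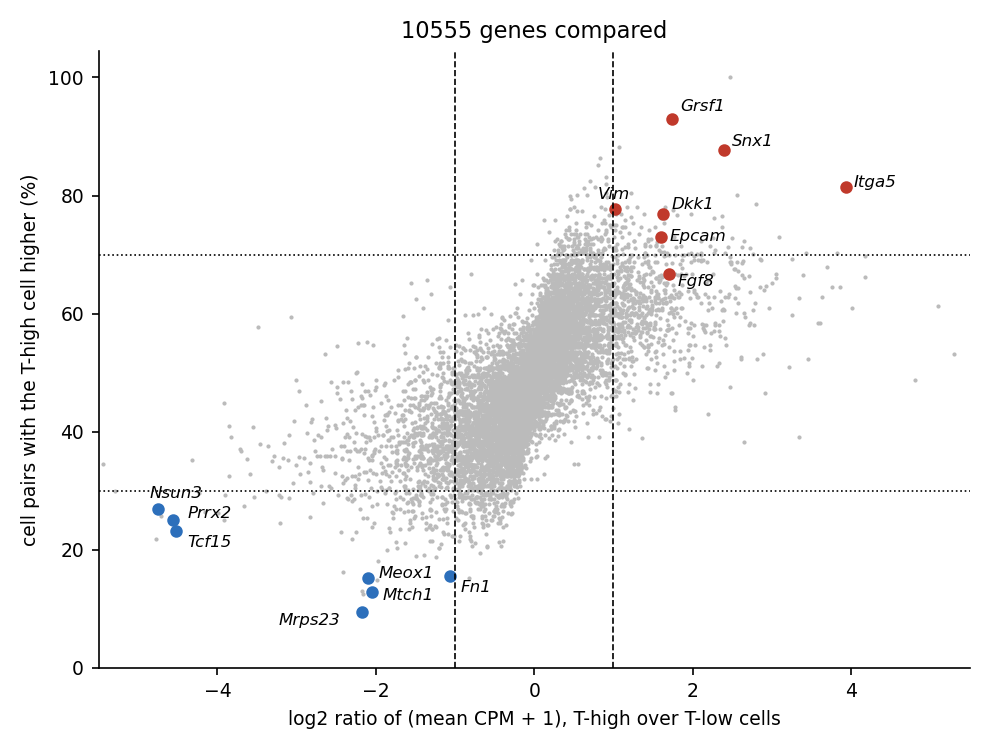
Each point is 1 of 10555 genes, by its log2 ratio of (mean CPM + 1), T-high over T-low (horizontal), and the percent of cell pairs in which the T-high cell was higher (vertical). Red and blue points mark named genes above and below 0, dashed lines 2-fold and dotted lines 30% and 70% of pairs. Grsf1 stands at 93.0% of pairs and Mrps23 at 9.38%, and T, which formed the groups, is the point at 100%.

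Of 20 listed genes of the primitive streak and nascent mesoderm 12 passed the read filter. Of these 2 were at least 2-fold higher in T-high cells and 0 lower, against 6.77% and 8.62% of all genes, and their median log2 ratio was 0.42. The summed level of the list did not follow this, with a median of 1711 CPM in T-high cells and 1777 CPM in T-low cells. Eomes, Evx1, Wnt3, Nodal, Lefty2, Gsc, Mesp1 and Tdgf1 had too few reads to be compared. Fgf8, the streak's main Fgf ligand, ranged over 0, 18.3 and 132 CPM (lowest, median, highest) in T-high cells and 0, 0 and 56.6 CPM in T-low cells. It had a read in 10 of 16 T-high cells (62.5%, 35.4 to 84.8%) and 6 of 16 T-low cells (37.5%, 15.2 to 64.6%). The groups overlapped widely, with T-high cells above T-low cells in 66.8% of pairs. The log2 ratio of Fgf8 was 1.70, or 2.40 without the T-low cell H2 and 1.28 without the T-high cell C2. In plate rows E to H it was 0.98, which ends the call. Lhx1, a LIM homeobox factor of the early mesoderm, averaged 66.5 ± 75.7 CPM in T-high cells and 28.9 ± 52.7 CPM in T-low cells, a log2 ratio of 1.18 that was 0.84 without the T-high cell C12 and 1.77 without the T-low cell A6.

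Other streak genes stayed under 2-fold. Mixl1, a homeobox gene of streak and early mesoderm, ranged over 0, 270 and 1340 CPM in T-high cells and 0, 103 and 774 CPM in T-low cells (log2 ratio 0.92). In plate rows E to H alone its ratio was -0.09. Wnt3a, the Wnt ligand of the streak, had a read in 13 of 16 T-high cells and 9 of 16 T-low cells (0.68). Fgf4, another streak Fgf, had a read in 12 of 16 T-high cells and 6 of 16 T-low cells (0.66, but -0.64 in plate rows A to D and 3.85 in rows E to H). Ifitm1, a surface protein gene of the streak, ran the other way, at 620 ± 308 CPM in T-high cells and 1058 ± 616 CPM in T-low cells (-0.77). Snai1, the repressor that drives epithelial-mesenchymal transition (EMT), had a read in 5 of 16 cells of each group.

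The targets and feedback genes of Fgf and Wnt signalling gave a mixed picture. Of the 22 listed genes of the T, Wnt and Fgf circuit, 19 were compared, with a median log2 ratio of 0.21. Of these 5 were at least 2-fold higher in T-high cells and 0 lower, against 6.77% and 8.62% of all genes. The 5 were Fgf8, Dkk1, Etv4, Spry4 and Nkx1-2, the last a gene of the rule. Etv4, an ETS factor induced by Fgf, ranged over 0, 30.2 and 171 CPM in T-high cells and 0, 0.15 and 74.9 CPM in T-low cells (log2 ratio 1.39). It was 0.78 in plate rows A to D. Spry4, an Fgf feedback inhibitor, averaged 47 ± 53.1 CPM in T-high cells and 18.1 ± 38 CPM in T-low cells, with a read in 10 of 16 cells of each group. Its ratio was 1.33, and 2.26 without the T-low cell E8, but 0.82 in plate rows E to H. Spry2, a related inhibitor read in all 32 cells, averaged 1014 ± 534 CPM in T-high cells and 634 ± 409 CPM in T-low cells (0.68, 71.9% of pairs).

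Dkk1 was the member that parted the groups most often. It had a read in 12 of 16 T-high cells (75%, 47.6 to 92.7%) and 5 of 16 T-low cells (31.2%, 11 to 58.7%), and in 3 of 16 middle cells. Its levels were 0, 135 and 1202 CPM in T-high cells and 0, 0 and 762 CPM in T-low cells. T-high cells stood above T-low cells in 77% of pairs, although 1 T-low cell reached 762 CPM. The log2 ratio of 1.63 became 3.37 without that T-low cell (A6) and 1.06 without the T-high cell A3, which held 1202 CPM. The Wnt effector and target genes did not follow Dkk1. Lef1 averaged 333 ± 152 CPM in T-high cells and 452 ± 289 CPM in T-low cells (log2 ratio -0.44). Axin2, Notum and Sp5 had log2 ratios of -0.23, -0.85 and 0.08.

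Most genes of paraxial determination ran below 0. Of 24 listed genes 12 were compared, 10 below 0 and 2 above, with a median log2 ratio of -0.75. At 2-fold 0 were higher and 4 lower in T-high cells, against 6.77% and 8.62% of all genes. The 4 were Tcf15, Meox1, Foxc2 and Efnb2. Between the upper and lower 8 middle cells 6 of the 12 ran above 0 and 6 below, with a median of 0.01. Of the 4 called genes 2 ran below 0 there. Aldh1a2, a gene of the rule, is on the list too, at -0.61. Genes of the formed somite (Pax1, Pax3, Pax9, Uncx, Tbx18 and Ripply1 among them) had too few reads to be compared in either group.

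Meox1, a homeobox gene of paraxial mesoderm and somites at chr11:101877510-101894374, ranged over 0, 43.6 and 99.2 CPM in T-high cells and 0, 138 and 529 CPM in T-low cells. It had a read in 10 of 16 T-high cells (62.5%, 35.4 to 84.8%) and 15 of 16 T-low cells (93.8%, 69.8 to 99.8%). The groups overlapped below 100 CPM, above which T-low cells stood alone. The log2 ratio was -2.10, T-high cells were the higher in 15.2% of pairs, and the ratio lay between -2.25 and -1.88 with each cell left out in turn. Middle cells averaged 126 ± 127 CPM.

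Tcf15 (paraxis), the bHLH factor that makes somites epithelial, at chr2:152143561-152149097, had a read in 1 of 16 T-high cells (6.25%, 0.16 to 30.2%) and 9 of 16 T-low cells (56.2%, 29.9 to 80.2%). The T-high cell with reads, C2, had 14.6 CPM, and the T-low cells ranged over 0, 25.8 and 188 CPM. Middle cells lay between, with a read in 4 of 16. The log2 ratio of -4.52 rests on that single T-high cell on its upper side and was -5.45 without it.

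Foxc2, a forkhead factor of presomitic and somitic mesoderm, had a read in 4 of 16 T-high cells (25%, 7.27 to 52.4%) and 10 of 16 T-low cells (62.5%, 35.4 to 84.8%), and in 0 of 43 epiblast-like cells. It averaged 25.3 ± 54.4 CPM in T-high cells and 71 ± 92.6 CPM in T-low cells. The log2 ratio of Foxc2 was -1.45, or -2.05 without the T-high cell D6, but -0.83 in plate rows E to H. Its relative Foxc1 averaged 45.7 ± 36.4 CPM in T-high cells and 81.4 ± 91.7 CPM in T-low cells (-0.82), with medians of 53.4 and 52.6 CPM, so its difference lay in the upper T-low cells. Its ratio was 0.10 in plate rows A to D and -1.78 in rows E to H. Efnb2, the ephrin ligand that marks somite borders, averaged 16.3 ± 42.6 CPM in T-high cells and 36.5 ± 61.8 CPM in T-low cells (-1.11). Its call ended without any 1 of the T-low cells H2 (-0.81), D4 (-0.60) or B6 (-0.94), and the ratio was -2.13 without the T-high cell B7. Pdgfra, a growth factor receptor of paraxial mesoderm, averaged 177 ± 113 CPM in T-high cells and 325 ± 141 CPM in T-low cells (-0.87, with T-high cells the higher in 23.4% of pairs).

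**Figure D3:**
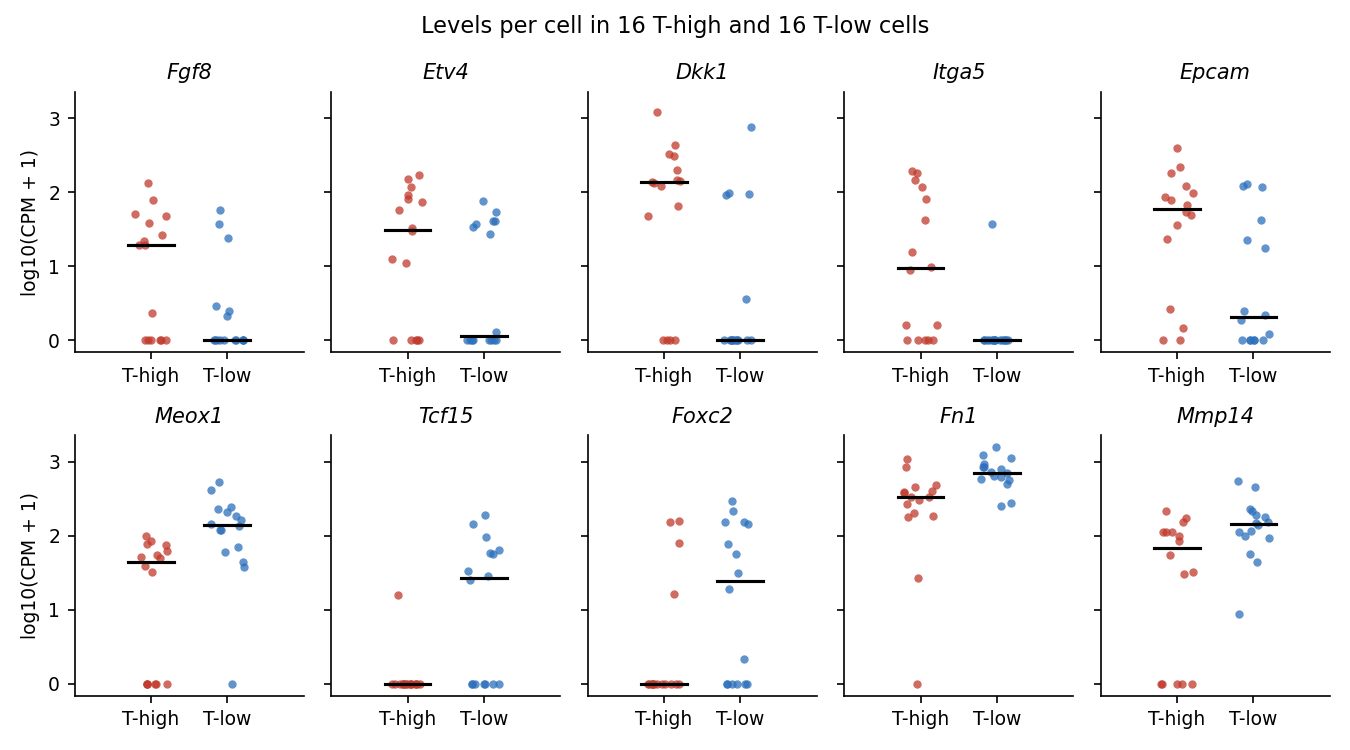
Levels in log10(CPM + 1) of 10 genes in each of the 16 T-high cells (red) and 16 T-low cells (blue), each point 1 cell and each bar the median. Tcf15 has reads in 1 T-high cell and 9 T-low cells, Itga5 in 11 T-high cells and 1 T-low cell, and the other genes overlap widely.

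The presomitic genes upstream of this step differed less. Of 20 listed genes of the presomitic mesoderm and the segmentation clock 14 were compared, with a median log2 ratio of -0.28. Of these 0 were higher and 3 lower in T-high cells, against 6.77% and 8.62% of all genes. Msgn1 averaged 183 ± 97.9 CPM in T-high cells and 132 ± 105 CPM in T-low cells (0.47). Tbx6 had a log2 ratio of -0.39, Dll1, the clock's Notch ligand, -0.18, and Hes7, the oscillating repressor, 0.02. The 3 lower genes were the receptor Notch1 (-1.10), its modifier Lfng (-1.40) and the protocadherin Pcdh8 (-1.20), and each call hung on few cells. Notch1 was at -0.76 without the T-low cell D4 and just above -1 without the T-low cell C6. Lfng was at -0.43 without the T-low cell B8 and Pcdh8 at -0.20 without D4 and -1.94 without the T-high cell G3. Lfng and Pcdh8 were at 0.01 and 0.42 in plate rows E to H, and exons of Notch1 and Pcdh8 overlap genes on the other strand.

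Genes of adhesion and matrix split within 1 list. Of 24 epithelial and mesenchymal genes 17 were compared, with a median log2 ratio of 0.01. Of these 3 were at least 2-fold higher in T-high cells and 2 lower, against 6.77% and 8.62% of all genes. Itga5, the alpha chain of the fibronectin receptor, and Fn1, its ligand, lay on opposite sides of 0. Itga5 (chr15:103344286-103366763) had a read in 11 of 16 T-high cells (68.8%, 41.3 to 89%) and 1 of 16 T-low cells (6.25%, 0.16 to 30.2%). It ranged over 0, 8.39 and 190.5 CPM in T-high cells, and the single T-low cell with reads (B8) had 36.4 CPM. Middle cells averaged 37.3 ± 51.4 CPM with reads in 9 of 16. The log2 ratio was 3.93, or 5.64 without B8, and T-high cells were the higher in 81.4% of pairs. Itgb1, the beta chain that pairs with it, averaged 126 ± 116 CPM in T-high cells and 165 ± 143 CPM in T-low cells (-0.39).

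Fn1 (chr1:71585520-71653200) ranged over 0, 334 and 1068 CPM in T-high cells and 254, 704 and 1557 CPM in T-low cells. All but 1 T-high cell had reads, and T-high cells were the higher in 15.6% of pairs. The log2 ratio of -1.06 lay close to the 2-fold line, and was -0.98, -0.97 and -0.96 without the T-high cell G3, the T-high cell C12 or the T-low cell B6. Middle cells, at 739 ± 337 CPM, were near the T-low cells' 760 ± 335 CPM and above the T-high cells' 364 ± 271 CPM. Mmp14, a membrane protease that cuts matrix, had a read in 11 of 16 T-high cells (68.8%, 41.3 to 89%) and 16 of 16 T-low cells (100%, 79.4 to 100%), and averaged 72.7 ± 68.9 CPM in T-high cells and 174 ± 144 CPM in T-low cells (-1.24). Exons of Fn1, and of Pdgfra, Krt10, Bnip3, Lef1, Dll1, Hes7 and Pou5f1, overlap genes on the other strand, so their reads may be shared where strand was not used.

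Vim, the intermediate filament of mesenchymal cells, was higher in T-high cells, at 236 ± 155 CPM against 116 ± 86.8 CPM in T-low cells, with T-high cells the higher in 77.7% of pairs. Its log2 ratio of 1.02 dropped under 1 with any 1 of 14 cells left out, the lowest being 0.84 without the T-high cell B12. Cdh2 (N-cadherin) averaged 64.1 ± 54.4 CPM in T-high cells and 96.6 ± 87.2 CPM in T-low cells (-0.58). Krt10 stood at 1.07 and lost its call with any 1 of 13 cells left out, down to 0.79 without the T-high cell B7.

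**Figure D4:**
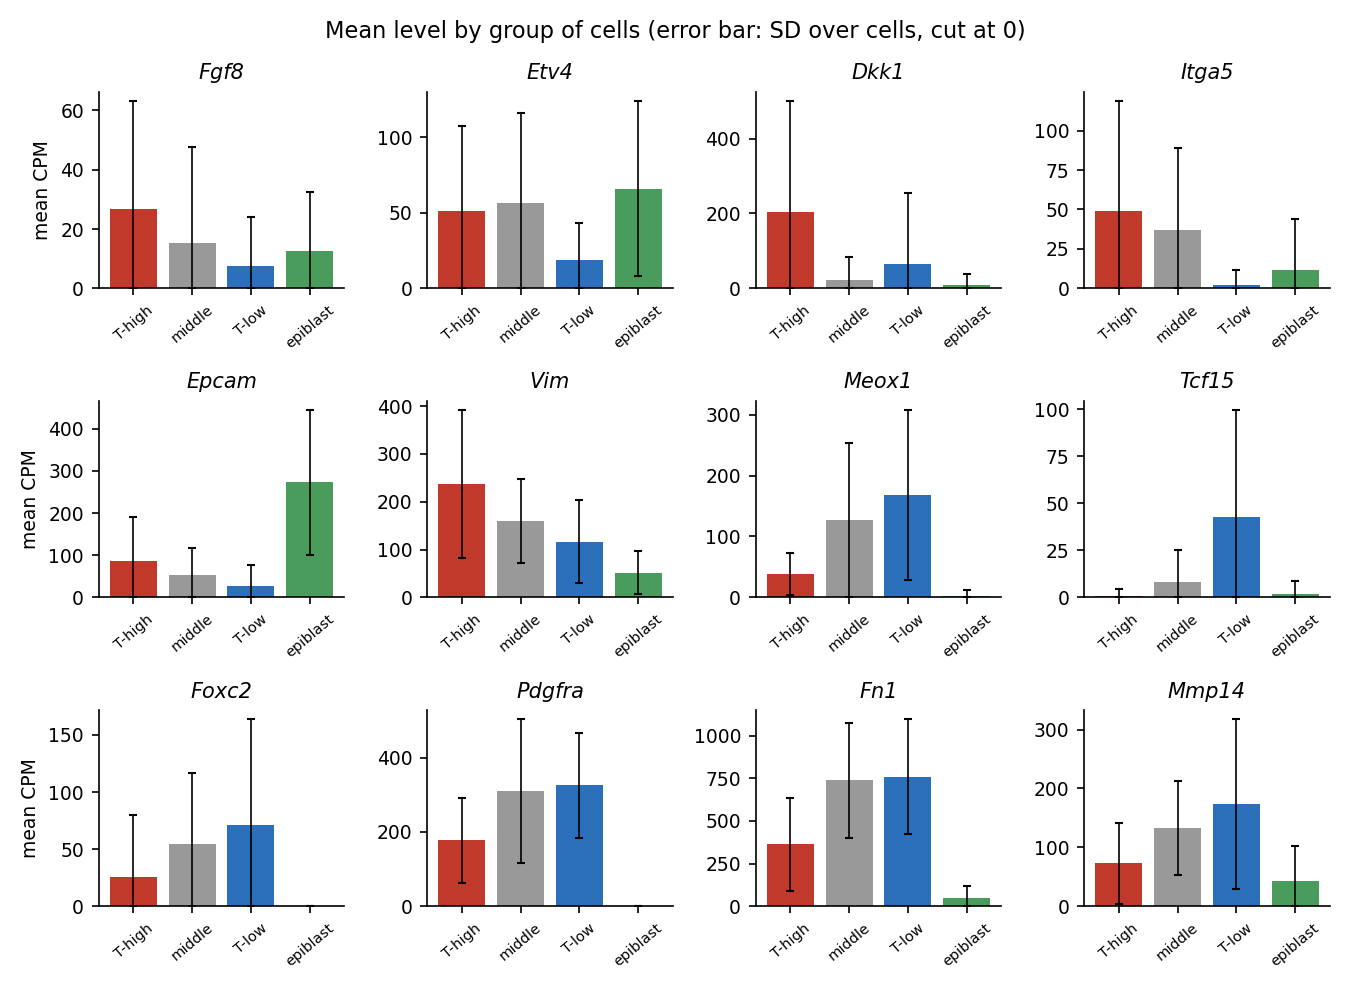
Mean CPM of 12 genes in T-high cells, middle cells, T-low cells and epiblast-like cells (16, 16, 16 and 43 cells), with error bars of 1 SD over cells, cut at 0. Meox1, Tcf15 and Foxc2 are lowest in T-high among mesoderm-like cells, Epcam is highest in epiblast-like cells, and Fn1 is alike in middle and T-low cells.

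Markers of the caudal epiblast, the other cell type in the dissected piece, were read in both groups. Of 16 listed genes 8 were compared, with a median log2 ratio of 1.27. Of these 5 were at least 2-fold higher in T-high cells (Nanog, Epcam, Sox2, Nkx1-2 and Cdh1) and 0 lower. Over all genes the shares were 6.77% and 8.62%. Without Nkx1-2, a gene of the rule, 4 of 7 were higher and the median was 1.16. Without the T-high cell E12 the median of the 8 was 0.67, and between the upper and lower 8 middle cells 4 of the 8 ran above 0 and 4 below, with a median of -0.05. The summed level of the whole list ranged over 384, 630 and 1396 CPM in T-high cells and 51.4, 561 and 833 CPM in T-low cells. Utf1, Cldn6, Cldn9, Fgf5, Otx2, Grhl2, Crb3 and Esrp1 had too few reads to be compared. That sum includes Nkx1-2, and the average that follows leaves it out. Averaged over the list without Nkx1-2, log2(CPM + 1) had a median of 1.81 in T-high cells, 1.53 in T-low cells and 3.40 in epiblast-like cells. The part of these transcripts in the other results was not tested.

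Epcam, an epithelial adhesion gene, ranged over 0, 59 and 389 CPM in T-high cells and 0, 1.06 and 128.5 CPM in T-low cells, beside 272 ± 171 CPM in epiblast-like cells. T-high cells were the higher in 73% of pairs and the log2 ratio was 1.60, but 0.60 in plate rows A to D, which ends the call. Cdh1 (E-cadherin) averaged 75.8 ± 107 CPM in T-high cells and 33.4 ± 61.6 CPM in T-low cells (1.16), or 0.77 without the T-high cell H11 and 0.94 without D6. Nanog, a pluripotency factor, had a read in 15 of 16 T-high cells and 13 of 16 T-low cells, mostly of under 3 CPM, and its ratio of 2.10 was 1.25 without the T-high cell D6 and 2.76 without the T-low cell H2. Sox2, the neural and epiblast factor, had 5 or more reads in 2 T-high cells and 0 T-low cells, and its ratio of 1.46 was 0.02 without the T-high cell E12. Pou5f1, the other pluripotency factor, averaged 53.1 ± 51.7 CPM in T-high cells and 42.1 ± 27.6 CPM in T-low cells (0.33). Nanog and Pou5f1 have near-identical copies in the genome, so their reads may be split or shared. The list differed between parts of the plate. Within plate rows A to D the list's median was -0.09 with 1 gene higher, and within rows E to H it was 1.13 with 6 higher and 1 lower.

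**Figure D5:**
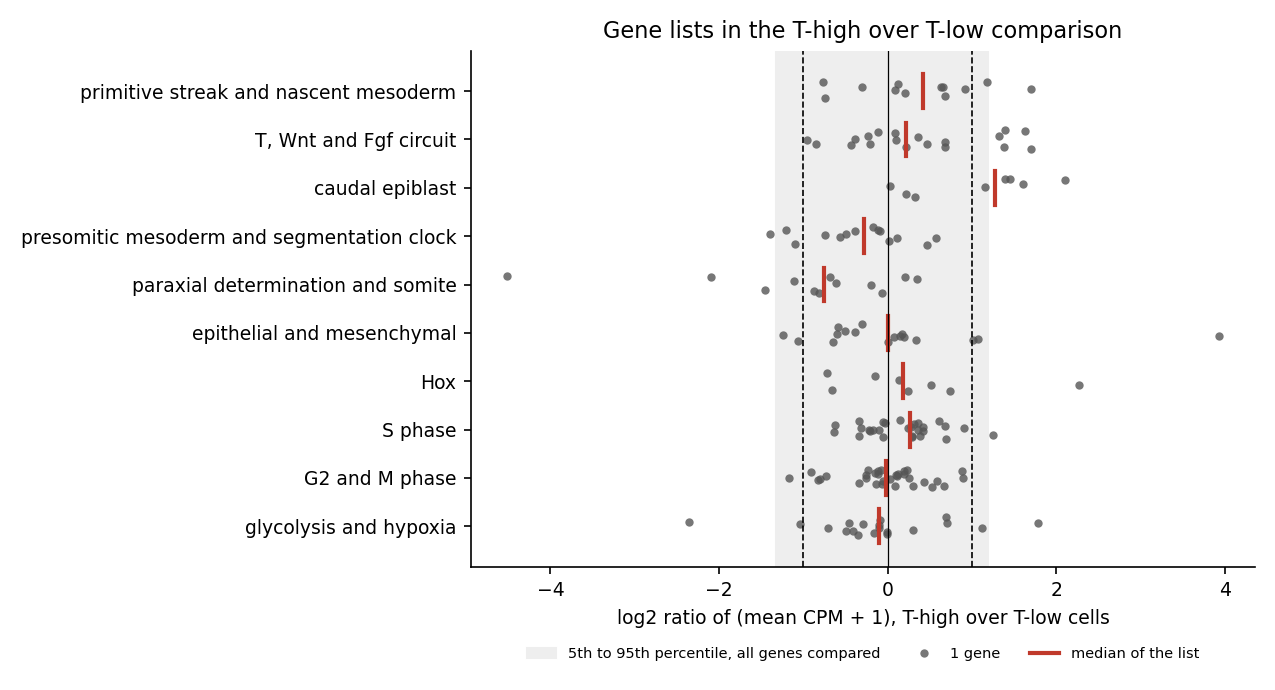
The log2 ratio of (mean CPM + 1), T-high over T-low, of every compared gene of 10 lists (1 point each), with the median of each list as a red bar, 2-fold as dashed lines and the 5th to 95th percentile of all 10555 genes in grey. The list medians run from 1.27 for caudal epiblast to -0.75 for paraxial determination, and most points lie inside the grey band.

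Markers of other cell types were sparse. Of 20 genes of lateral, intermediate and cardiac mesoderm, 1 was compared. This was Prrx2, a homeobox gene of mesenchyme, with 0 reads in T-high cells (0 of 16 cells, which allows a share of up to 20.6%) and 1040 reads over 8 of 16 T-low cells (50%, 24.7 to 75.3%). Prrx2 passed the read filter only through those 8 T-low cells, and leaving out any 1 of them took it out of the comparison. Its T-low levels ranged over 0, 5.61 and 112 CPM and 3 of 16 middle cells had a read. The list's summed level ranged over 0, 2.89 and 94.2 CPM in T-high cells and 0, 43.4 and 228 CPM in T-low cells. Gata4, Gata6, Hand1, Isl1, Tbx5 and Foxf1 were among the genes too rare to be compared. The log2 ratio of Foxf1 was -1.23, or -0.28 without the T-low cell D9 and -2.32 without the T-high cell A12. The node and notochord list had 2 compared genes with 0 called, the neural list 1 with 0 called and the endoderm list 0 compared. The surface ectoderm list had 4 compared genes and 1 called, the keratin Krt18 (2.24), which was 1.27 without the T-high cell D6 and 3.73 without the T-low cell A7. Over all genes 6.77% were higher in T-high cells and 8.62% lower.

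Hox genes gave 1 call among 8 compared of 26. It was higher in T-high cells, as were 6.77% of all genes. Hoxa5, a patterning gene of the neck and upper trunk, had a read in 11 of 16 T-high cells (68.8%, 41.3 to 89%) and 4 of 16 T-low cells (25%, 7.27 to 52.4%). Its levels were 0, 17.2 and 98.2 CPM in T-high cells and 0, 0 and 59.2 CPM in T-low cells (log2 ratio 2.27, or 3.78 without the T-low cell H2). Hoxb1, active early in the streak, averaged 393 ± 246 CPM in T-high cells and 647 ± 437 CPM in T-low cells (-0.72). Meis1, a Hox cofactor, had a read in 3 of 16 T-high cells and 10 of 16 T-low cells (-2.27, or -3.06 without the T-high cell C2 and -2.89 without B7), and its exons overlap Gm16140 on the other strand and Gm37818.

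Rara was among the 15 genes with the largest ratios. It ranged over 0, 19.6 and 115.5 CPM in T-high cells and 0, 0 and 23.6 CPM in T-low cells, with 5 or more reads in 11 T-high cells and 5 T-low cells (log2 ratio 2.50, 72.9% of pairs). Its T-low cells stayed under 24 CPM while middle cells reached 146 CPM. Aldh1a2, whose product makes the ligand of this receptor, was the lower in T-high cells, as given above.

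Over all genes, members of the lists included, the 15 highest ratios by the naming rule were those of Itga5, Mlf1, Slco5a1, Sypl, Rara, Zfp606, Snx1, Kctd3, Ube2d-ps, Tmem94, Hoxa5, Casc4, Cwc27, Ptbp3 and Gstt2. Among the 15 lowest were those of Nsun3, Bet1l, 9430015G10Rik, Ube3b, Aldoc, Cflar, Gpsm1, Rab11fip4, Cenpm, Meis1, Kcnk3, Med26, Mrps23 and Stxbp2. The rule asked for at least 2-fold, a mean of 20 CPM, reads in 10 cells of the higher group and 70% of pairs, and 78 genes beside T passed it upward and 120 downward. In the middle cells, upper 8 against lower 8 by T, the sign was kept by 8 of the 15 highest and 6 of the 15 lowest. Ube2d-ps is a pseudogene, so its reads may come from related copies.

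Values of 5 of these genes follow. Snx1, a sorting nexin of endosomes, ranged over 0, 108 and 284 CPM in T-high cells and 0, 10.7 and 94.1 CPM in T-low cells (log2 ratio 2.40, 87.7% of pairs). Mlf1, a nucleocytoplasmic adaptor, averaged 106 ± 118 CPM in T-high cells and 14.5 ± 28.3 CPM in T-low cells (2.80). Mrps23, a protein of the mitochondrial ribosome, ranged over 0, 0.52 and 60.8 CPM in T-high cells and 2.91, 70.1 and 279 CPM in T-low cells, with a read in 9 of 16 T-high cells (56.2%, 29.9 to 80.2%) and 16 of 16 T-low cells (100%, 79.4 to 100%). The log2 ratio of Mrps23 was -2.18 and T-high cells were the higher in 9.38% of pairs. Nsun3, which modifies a mitochondrial tRNA, averaged 1.29 ± 3.22 CPM in T-high cells and 60.7 ± 114 CPM in T-low cells (-4.76). Ube3b, a ubiquitin ligase, had a read in 7 of 16 T-high cells and 15 of 16 T-low cells (-2.41, or -3.07 without the T-high cell A12).

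The pattern most like that of T over the 48 mesoderm-like cells, by Spearman correlation among 7375 genes with a read in at least 24 of them, was that of Grsf1, an RNA-binding protein of mitochondrial RNA granules (0.66). These cells include the 32 that the groups were cut from, and the values share each cell's library and depth, so the correlations are a description. The next were Snx1 (0.52), Ptp4a2 (0.50), Dnajc19 (0.49), Zc3h15 (0.48), Zscan26 (0.47), Snhg5 (0.47) and Rbm6-ps1 (0.47). Among the 8 most opposite were Gm6485 (-0.59), Mtch1 (-0.56), Mrps23 (-0.56), Stxbp2 (-0.51), Meox1 (-0.49), Clk2 (-0.49) and Syngr2 (-0.48). The 1st and 99th percentiles over all 7375 genes were -0.37 and 0.35. Grsf1 ranged over 447, 1338 and 3029 CPM in T-high cells and 27.1, 336 and 1387 CPM in T-low cells, was read in all 32 cells and had a log2 ratio of 1.74. Middle cells averaged 764 CPM of it, and their 8 cells with more T had 876 CPM against 652 CPM in the 8 with less. Over the 16 middle cells alone the correlation of Grsf1 with T was 0.40. For the 8 genes most like T it ran there from 0.10 (Dnajc19) to 0.74 (Ptp4a2). For the opposite genes named here it ran from -0.68 (Gm6485) to 0.16 (Stxbp2, which changed sign), with Mtch1 at -0.16 and Meox1 at -0.18. Mtch1, a protein of the outer mitochondrial membrane, ranged over 0, 9.87 and 95.7 CPM in T-high cells and 6.48, 65.6 and 318 CPM in T-low cells (-2.05).

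Few genes of the cell cycle and of ribosomes were called. Over all genes compared 6.77% were higher in T-high cells and 8.62% lower. Calls were rarer among genes with a mean of at least 200 CPM, at 0.84% and 0.37%. Whether these lists differ from genes of like level was not tested. Of 28 S phase genes, all compared, 1 was higher in T-high cells and 0 lower, with a median log2 ratio of 0.26. The 1 was Pola1 (1.24), a DNA polymerase subunit, at 0.61 without the T-high cell B2. Of 32 genes of G2 and M phase, 0 were higher and 1 lower, with a median of -0.02. The 1 was Anln (-1.17), a cytokinesis protein, at -0.85 without the T-low cell E8 and -0.67 without H2. The summed S phase level had a median of 9026 CPM in T-high cells and 8560 CPM in T-low cells, and that of G2 and M phase 5128 CPM in T-high cells and 6012 CPM in T-low cells. Of 82 ribosomal protein genes 0 were called, with a median of -0.12, and of 29 mitochondrial genes 1 was higher, with a median of 0.27.

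Of 24 genes of glycolysis and hypoxia 19 were compared, with a median log2 ratio of -0.11. Of these 2 were higher in T-high cells and 2 lower, against 6.77% and 8.62% of all genes. Slc16a1, a transporter of lactate and pyruvate, ranged over 23.8, 244 and 690 CPM in T-high cells and 0, 75.2 and 582 CPM in T-low cells (1.12, or 0.99 without the T-high cell G3). Bnip3, a mitophagy protein, had a read in 10 of 16 T-high cells and 5 of 16 T-low cells (1.78, but 0.76 in plate rows A to D). Aldoc, an aldolase, averaged 13.4 ± 28.1 CPM in T-high cells and 73.2 ± 94.9 CPM in T-low cells (-2.36, or -3.00 without the T-high cell B7). Slc16a3, another lactate transporter, was at -1.04 and lost its call with any 1 of 13 cells left out. Ldhb, a lactate dehydrogenase subunit, averaged 462 ± 174 CPM in T-high cells and 284 ± 218 CPM in T-low cells, with medians of 453 CPM and 197 CPM, and T-high cells were the higher in 82.4% of pairs (0.70).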

How the data were processed

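The deposited table held raw read counts for 53379 genes in 91 cells. Per the labels and the study's methods, the authors sequenced Smart-seq2 libraries as single reads of 75 bp, aligned them with HISAT2 to GRCm38 (mm10) and counted them with featureCounts. Which tool versions, gene models or strandedness were used was not given in the sources used here. Libraries carried no molecular identifiers, so duplicated reads count as reads. Symbols were matched by gene ID for 53274 genes, and coordinates and exon overlaps came from GENCODE M21 (GRCm38). Each column was mapped to its sample by its title, and no doublet caller was run on cells sorted singly.

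Counts were scaled to CPM. Ratios are log2 of (mean CPM + 1), T-high over T-low, so they understate the change of low genes. A gene was called at 2-fold, without a p-value, since each group of cells is 1 sample. Named genes were the 15 largest and 15 smallest ratios by the rule in the text, up to 4 called members of each list, 8 genes fixed by name and the 8 most like and unlike T. Spry2, Etv2, Foxf1, Ldhb and the other uncalled list members were named after their values were seen. The values of 1 gene that the rule names are not reported here. The members and lists were chosen with earlier results of these data known. The ratio and the share of pairs were tested on simulated counts with groups fixed beforehand. The class rule, the ranking by T and the other steps were not. All steps used Python 3.11.15, numpy 2.4.6, pandas 2.3.3 and scipy 1.17.1.

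Alternatives covered the pseudocount, scaling, ranking, thinning to 500000 counts, group size, class rule, plate rows, read filter, call rule and each cell left out. RefSeq promoters were matched for 6790 of the 10555 genes compared, and Meox1, Tcf15, Fn1 and Fgf8 were not among them.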

Additional observations from a re-analysis of the deposited data

How the results depend on the processing

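No paired analysis was possible because the cells are 1 pool with no embryo named. The counts of calls moved with the rule. Against 715 genes higher in T-high cells and 910 genes lower in T-high cells, a pseudocount of 10 CPM gave 334 and 421, the 24 cells with more T against the 24 with less 469 and 583, reads in at least 16 cells 259 and 371, no filter 2249 and 2432, the condition on pairs 96 and 157, and 4-fold 145 and 192. Plate rows E to H alone (7 T-high and 6 T-low cells) gave 1464 higher genes. Rows A to D alone (9 T-high and 10 T-low cells) gave 1480 lower ones. The opposite direction is not given for either, so these counts do not compare the 2 parts of the plate. The genes compared differed between settings, as the read filter and the cells changed. These are therefore counts and not shares of the same set of genes. Leaving out each cell in turn gave 675 to 752 higher and 858 to 987 lower genes, a median of 0.30 to 0.63 for the primitive streak list, of -0.93 to -0.67 for the paraxial determination list and of 0.67 to 1.51 for the caudal epiblast list. Single genes changed sign by plate rows: Nanog -0.97, Slc16a3 0.96, Lfng 0.00903 and Pcdh8 0.42 in rows E to H, and Cdh1 -0.036, Anln 0.17 and Sox2 -0.17 in rows A to D. Of genes under 2-fold, Mixl1 (-0.09), Dll1 (0.81), Cdh2 (0.13), Snai1 (0.77) and Itgb1 (0.18) changed sign in rows E to H. Axin2 (0.24), Sp5 (-0.43), Hes7 (-0.39) and Lmo2 (-0.32) also did so there, and Fgf4 (-0.64), Foxc1 (0.10) and Pou5f1 (-0.23) in rows A to D. The cause was not tested. Itga5, Mlf1, Snx1, Grsf1, Dkk1, Meox1, Tcf15 and Mrps23 kept their sign and 2-fold in 12 of 12 other settings, and Fn1 its sign in 12 and 2-fold in 8. One of these settings, leaving out cells D6 and H4, was chosen after seeing the data. The settings reuse the cells in which most of these genes were picked, so a kept sign is no independent support. Itga5, Dkk1 and Tcf15 would have passed the read filter through the cells of 1 group alone, the group where they were higher. The same held for Fgf8, Fgf4, Hoxa5, Foxc2, Meis1, Ube3b, Bnip3 and Prrx2, and this list is not complete. The table held no spike-in rows, so that alternative left out mitochondrial genes only. Genes with few reads are limited by depth.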

Other observations

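Blood and vessel progenitor genes were read in some mesoderm-like cells. Lmo2, a cofactor of early blood and endothelial cells, had a read in 14 of 16 T-high cells and 9 of 16 T-low cells. Its medians were 106 CPM in T-high cells and 26 CPM in T-low cells (log2 ratio 0.36, since 1 T-low cell reached 438 CPM). The ratio of Lmo2 was 0.92 without the T-low cell H4, 1.26 in plate rows A to D and -0.32 in rows E to H. Etv2, the ETS factor that starts that lineage, had a read in 4 of 16 T-high cells (25%, exact 95% interval 7.27 to 52.4%) and in 0 of 16 T-low cells, which allows a share of up to 20.6%. It was named after its values were seen and did not pass the read filter. The haemato-endothelial list summed to 0, 106 and 203 CPM (lowest, median, highest) in T-high cells and 0, 42.6 and 438 CPM in T-low cells, with 1 of its 15 genes compared and 0 called.

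In the epiblast-like cells, the 16 cells with the most T (mean 556 CPM) and the 16 with the least (1.52 CPM) gave the following values, for genes picked after they were seen. Wnt3a averaged 69.8 CPM in the cells with more T and 0.32 CPM in those with less, Fgf8 24.6 CPM and 2.28 CPM, and Hes7 88 CPM and 1.20 CPM. Dkk1 ran the other way there, at 3.94 CPM in the cells with more T and 17.8 CPM in those with less, and Meox1 was at 4.18 CPM and 1.02 CPM. Itga5 averaged 19.6 CPM in the cells with more T and 5.06 CPM in those with less. Whether the effect differed between the classes was not tested.

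Klf4, a factor also induced by dissociation, averaged 1.30 ± 4.67 CPM in T-high cells and 14.2 ± 23.4 CPM in T-low cells (log2 ratio -2.73, or -3.75 without the T-high cell F12). It was the 1 gene called of 6 compared immediate early genes, while 8.62% of all genes were lower.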
